A study of Oryza sativa with 12 samples.

Results

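Rice seedlings carrying an OsHOX24 over-expression construct were compared with wild-type (WT) seedlings in the absence of stress, on 3 arrays of each kind. These 6 arrays, of 12 in the series, were chosen by their sample labels: control arrays of the over-expression plants (H49_CT) and control arrays of WT (WT_CT). All plants were of the rice variety Pusa Basmati 1, grown for 3 weeks in hydroponic culture and then kept in water for 3 h. The H49 plants carried the OsHOX24 open reading frame driven by a ubiquitin promoter, in a line that had been selected on hygromycin and was homozygous for the construct. The labels give the over-expressed gene and not the line, and the name H49 is taken from the study's text. H49 is a single transgenic line, so that an influence of the construct and one of its place of insertion cannot be told apart. The other 6 arrays held the same genotypes after 3 h of drying between folds of tissue paper (WT_DS and H49_DS, desiccation stress), and are used here to define stress genes and as a second set of arrays for the genotypes.

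OsHOX24 belongs to the HD-Zip I family of transcription factors, which are found only in plants and bind DNA as dimers through a homeodomain joined to a leucine zipper. Several genes of this family respond to drought and to the hormone abscisic acid (ABA). In unstressed plants, ABA-dependent genes such as those for dehydrins and late embryogenesis abundant (LEA) proteins are held low, because clade A type 2C protein phosphatases keep the SnRK2 kinases (SAPK in rice) inactive until ABA binds its receptors. A transcription factor made constitutively could in principle alter such genes before any stress is applied, and the level of these genes in water, their basal level, was therefore examined array by array.

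Levels are given throughout as log2 values, in which a step of 1 is a 2-fold difference, and differences are H49_CT minus WT_CT with a standard error (SE) or a 95% interval from limma, a linear model fitted over all 15140 genes tested. To be called, a gene needed a 2-fold difference or more together with a Benjamini-Hochberg adjusted p no higher than 0.05. The medians of the 15140 genes lay between 5.18 and 5.30 on the 6 control arrays. In these whole seedlings, the 14 genes of photosynthesis and chlorophyll had medians from 7.22 to 8.05 on the control arrays, and the 44 root uptake and root genes had medians from 4.56 to 5.03. Levels were measured in bulk RNA, in which fewer cells of a type and less RNA per cell cannot be told apart.

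The arrays labelled replicate 1 did not side with the other arrays of their genotype at a set of genes, and this bears on every comparison below. At 59 genes WT_CT replicate 1 and H49_CT replicate 1 each lay at least 1 log2 unit outside the other arrays of their own genotype, on opposite sides. At 43 of these genes WT_CT replicate 1 was the high array of WT and H49_CT replicate 1 the low array of H49. The median of the 43 genes was 5.79, 3.25 and 3.22 on the WT_CT arrays and 3.11, 5.80 and 5.54 on the H49_CT arrays, in the order of replicates 1, 2 and 3. The array labelled WT_CT replicate 1 thus stood with H49_CT replicates 2 and 3, and the array labelled H49_CT replicate 1 stood with WT_CT replicates 2 and 3. At the other 16 genes the sides were turned, with medians of 3.78, 6.50 and 6.53 in WT_CT and 6.57, 4.81 and 4.61 in H49_CT. The desiccated arrays were not used to choose these genes. At 54 of the 59 their replicates 1 lay on the same sides of the mean of the other arrays of their groups. This was counted at any distance, without the minimum of 1 log2 unit used in water.

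**Figure D1:**
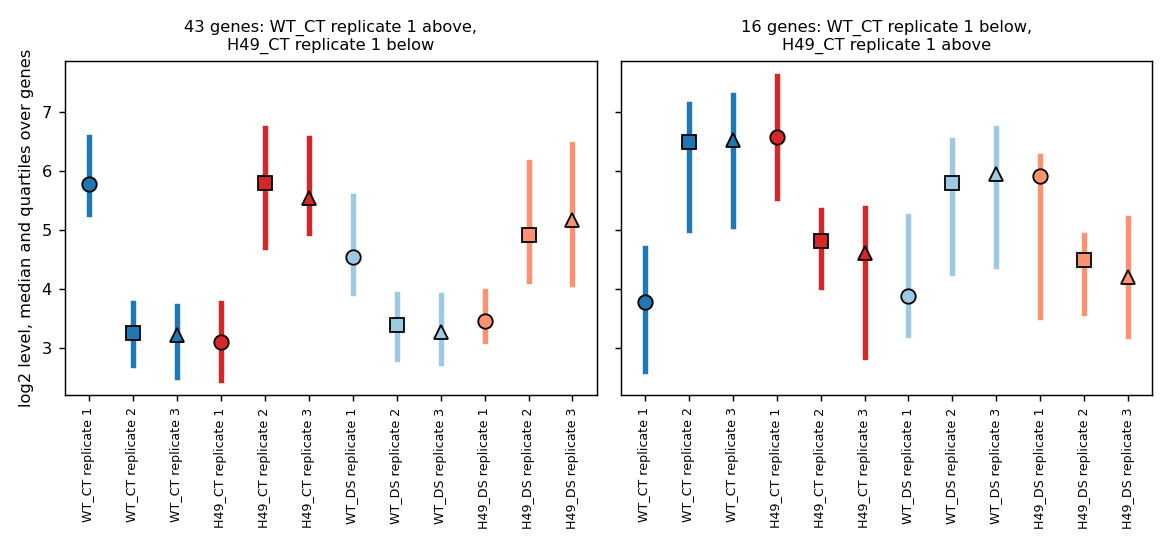
Log2 level (vertical axis) on each of the 12 arrays (horizontal axis) for the 43 genes at which WT_CT replicate 1 was high and H49_CT replicate 1 low (left), and the 16 genes at which the sides were turned (right). Symbols are medians over the genes and bars run from the lower to the upper quartile, in blue for WT and red for H49, dark in water and pale after desiccation. On the left the arrays labelled replicate 1 changed places between the genotypes, with 5.79 in WT_CT and 3.11 in H49_CT.

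Single genes showed how far these arrays were apart. LOC4348206 had values of 7.12, 2.56 and 2.46 in WT_CT and 2.65, 8.18 and 6.62 in H49_CT. LOC4335497 ran the other way, with 1.65, 8.15 and 8.13 in WT_CT and 8.29, 5.98 and 2.08 in H49_CT. BADH2, a betaine aldehyde dehydrogenase whose loss gives aromatic rice its fragrance, had values of 8.17, 6.10 and 6.37 in WT_CT and 6.51, 7.55 and 8.20 in H49_CT. In these 3 genes the ranges of the WT_CT and H49_CT arrays overlapped, although replicates 2 and 3 of the genotypes were apart. Among the 59 genes, 3 had a recognised name, namely BADH2, CNIH1 and DTC1. In the order of the RefSeq gene table, 29 of the 59 had another of them within 20 tested genes on the same chromosome, and 17 lay on chromosome 8, which held 1032 of the genes tested. The count of neighbours is not given here for other sets of genes, so how common it is elsewhere cannot be read from it.

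Other pairs of control arrays were counted in the same way. Replicates 2 of the genotypes were apart from their groups on the same side at 60 genes and on opposite sides at 0 genes, and replicates 3 at 60 and 2 genes. Replicates 1 were apart on the same side at 23 genes. Among pairs with different numbers, WT_CT replicate 2 and H49_CT replicate 3 stood on opposite sides at 67 genes, and WT_CT replicate 3 and H49_CT replicate 2 at 23, so that counts of this size were not confined to replicates 1. The desiccated arrays of these numbers kept the sides at 56 of the 67 genes and at 23 of the 23, so that this was not confined to replicates 1 either. At 48 of the 67 genes the medians were 6.51, 8.01 and 5.62 in WT_CT and 7.13, 7.64 and 5.41 in H49_CT, with replicate 2 highest and replicate 3 lowest in both genotypes. There the arrays followed their number, whereas at the 59 genes replicate 1 was high in the array of one genotype and low in that of the other. The labels were kept as given in every comparison and no array was moved to another group. The main comparisons are given with all arrays and also without the 4 arrays numbered 1. So are most gene groups with calls at an unadjusted p under 0.05. This choice was made after these values had been seen. Whether the plants or the tubes behind replicates 1 differed from their labels was not tested.

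The over-expressed gene was examined first. OsHOX24 had values of 5.61, 4.11 and 2.83 in WT_CT and 4.56, 3.57 and 3.23 in H49_CT. The highest and the lowest of these 6 values both belonged to WT, and the groups overlapped. The difference was -0.39 (SE 0.55, 95% interval -1.57 to 0.78), with an adjusted p of 1.00 in limma, and a two-sided exact permutation test gave p = 0.7, where 0.1 is the smallest p that 3 arrays against 3 allow. The sign rested on WT_CT replicate 1, without which the difference was 0.32, and without the 4 arrays numbered 1 it was -0.07. After desiccation the values were 9.38 to 10.29 in WT_DS and 9.44 to 10.17 in H49_DS, so that the probe set was able to register a much higher level than that of any control array. The place of the probes within the gene is not given in the sources used here, and it is not known whether they measure the transcript of the construct, which holds the open reading frame alone. By real-time PCR the study reports a raised level of the transgene in all of its selected lines, H49 among them, relative to WT. Those measurements were not analysed here.

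In water, 0 of the 15140 genes (0%) were called between H49_CT and WT_CT by limma. At an unadjusted p under 0.05 there were 290 genes, or 1.92%, of which 152 (1%) were higher and 138 (0.911%) lower in H49_CT. The differences of all genes had a median of 0.03, with quartiles of -0.10 and 0.16, and ran from -1.38 for NAS1 to 1.77 for LOC4348206. The lowest adjusted p in limma was 0.927. For 13621 genes (90%) the 95% interval of the difference lay within a fold of 2 in both directions, and for the remaining genes a difference of 2-fold was within the interval. The median SE of a difference was 0.23.

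Without the 4 arrays numbered 1, limma called 20 genes (0.132%), all higher in H49_CT, and 704 genes had an unadjusted p under 0.05. Of the 20 genes, 19 were among the 59 described above, and 19 were lower in H49_CT replicate 1 than in WT_CT replicate 1. The 59 genes were chosen for that position of replicates 1, and the arrays were left out after it was seen. These counts and the adjusted p from replicates 2 and 3 alone are therefore a description and not a test. LOC4348206 was higher by 4.89 in H49_CT (SE 0.43, adjusted p 0.00569 in limma) without arrays 1, while the difference between the control arrays numbered 1 themselves was -4.47. LOC4344909 showed the same turn, with differences of 4.56 and -4.52. The exception was LOC4333712, a gene that was higher in H49_CT in the arrays numbered 1 too, by 0.49. The named genes among the 20 were CNIH1, a cornichon homologue, with a difference of 1.90, and DTC1, with 1.74. In the desiccated arrays 2 and 3, 19 of the 20 were higher in H49_DS, and in the desiccated arrays 1, 18 were lower. Of the 20 genes, 1 was raised by desiccation and 0 were members of any gene list used here.

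**Figure D2:**
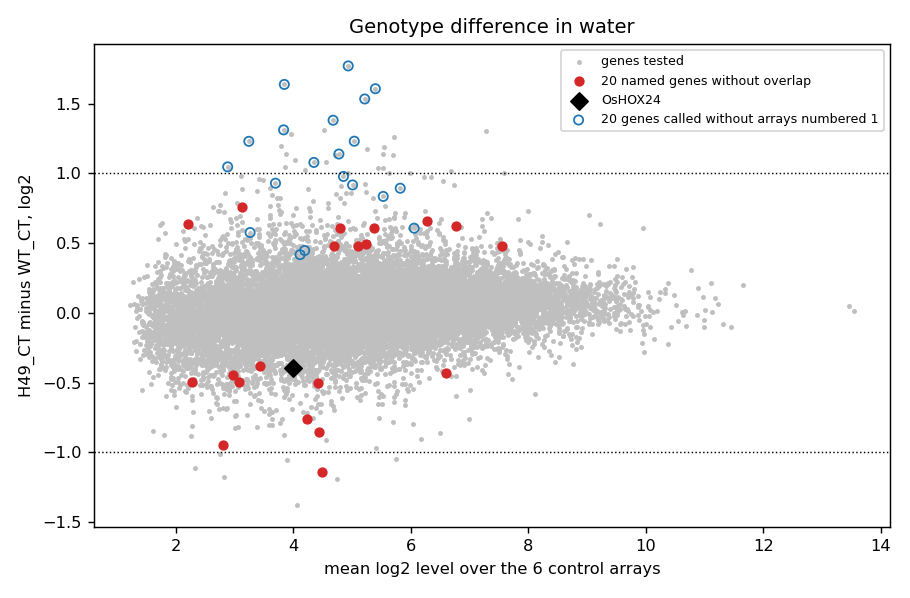
Difference between H49_CT and WT_CT in log2 units (vertical axis) against the mean log2 level over the 6 control arrays (horizontal axis), with 1 grey point per gene tested. Dotted lines mark a 2-fold difference, red points the 20 named genes without overlap, the black diamond OsHOX24 at -0.39, and blue rings the 20 genes called when the 4 arrays numbered 1 were left out, of which LOC4348206 at 1.77 is the highest.

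Between all 3 arrays of each genotype, 1130 genes (7.46%) showed no overlap, 657 of them (4.34%) higher and 473 (3.12%) lower in H49_CT. Only 9 genes (0.0594%) combined this with a difference of at least 2-fold in the means, 4 higher and 5 lower. In all, 41 genes differed by at least 2-fold in the means, 33 higher (0.218%) and 8 lower (0.0528%), and 13 of the 33 were among the 59 genes at which the arrays numbered 1 stood on opposite sides. LOC4339934 had the largest difference of the 9, with values of 3.46, 3.57 and 2.89 in WT_CT and 4.31, 4.67 and 4.80 in H49_CT. LOC4343777 had 4.54, 4.54 and 5.75 in WT_CT and 6.10, 6.20 and 6.10 in H49_CT. The H49_CT arrays of these 2 genes lay close together above WT, with differences of 1.28 (SE 0.24) and 1.19 (SE 0.31). After desiccation the differences were -0.43 and 0.04.

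Among the 1734 genes with a recognised name, 110 showed no overlap in water, 80 higher and 30 lower in H49_CT. This stands beside 1130 of all 15140 genes (7.46%). The 10 named genes with the largest difference in each direction are described here. None of the 20 was called, with adjusted p from 0.927 to 1.00 in limma. Since they were chosen by these values, the differences are a description and the desiccated arrays serve as the second measurement.

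The higher genes belonged to several kinds. NPR4, a rice relative of the NPR proteins that respond to salicylic acid in Arabidopsis, had values of 5.08, 5.07 and 5.08 in WT_CT and 5.64, 5.75 and 5.67 in H49_CT. Both groups were narrow and well apart, and the difference was 0.61 (SE 0.18). DCL2A, a Dicer-like nuclease that cuts double-stranded RNA into small RNAs, had 6.20, 5.80 and 5.81 in WT_CT and 6.39, 6.39 and 7.02 in H49_CT. AOX1, the alternative oxidase of the mitochondrial electron chain, had 6.73, 5.92 and 6.71 in WT_CT and 6.83, 6.82 and 7.61 in H49_CT. For DCL2A and AOX1 it was H49_CT replicate 3 that stood highest, and the gap between the groups was narrow. NAC077, a NAC transcription factor, had the largest difference, 0.76, with 2.74, 2.60 and 2.93 in WT_CT and 4.26, 3.26 and 3.02 in H49_CT. It rested on H49_CT replicate 1, and without the arrays numbered 1 the difference was 0.37.

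The other higher genes were EXP21, an expansin that loosens cell walls (0.64), OsPUB57, a U-box protein of the ubiquitin ligase type (0.61), JMJ705, a histone demethylase acting on methylated lysine of histone H3 (0.50), OsRac4, a small GTPase of the ROP family (0.48), the B-type cyclin CycB1-1 (0.48) and XOAT7, named as a xylan O-acetyltransferase (0.48). EXP21 was dim, with 1.70, 1.84 and 2.14 in WT_CT and 2.48, 2.33 and 2.78 in H49_CT. OsRac4 was the brightest of these, with 7.25, 7.43 and 7.25 in WT_CT and 7.74, 7.69 and 7.94 in H49_CT. In both the H49_CT arrays were all above WT_CT by a small step.

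Of the lower genes, AO-3 had the largest difference, with values of 4.81, 5.30 and 5.07 in WT_CT and 4.02, 3.79 and 3.94 in H49_CT. Every H49_CT array was below every WT_CT array by more than 0.5, the difference was -1.14 (SE 0.21, 95% interval -1.60 to -0.68), and its adjusted p in limma was 0.927. Without the arrays numbered 1 it was -1.32, and after desiccation -0.41. osysl15 (OsYSL15), a transporter of iron bound to phytosiderophores, had 2.64, 3.93 and 3.28 in WT_CT and 2.59, 2.26 and 2.16 in H49_CT. WT_CT replicate 1 was hardly above the H49_CT arrays and WT_CT replicate 2 was the highest. The difference was -0.94 (SE 0.31) in water and -0.70 after desiccation.

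ELA3, an early nodulin-like protein, was the gene of the 20 that desiccation raised most, by 4.25 over both genotypes. In water it had 5.35, 4.48 and 4.75 in WT_CT and 4.09, 4.11 and 3.82 in H49_CT, a difference of -0.85 (SE 0.25). After desiccation the arrays of both genotypes ran from 8.12 to 9.0 and overlapped. GER6, a germin-like protein, had 4.64, 4.64 and 4.55 in WT_CT and 3.73, 3.49 and 4.32 in H49_CT, a difference of -0.76 in water and -0.77 after desiccation. The remaining lower genes were hox14, another HD-Zip I gene (-0.50), the phosphatase gene OsPP2C73 (-0.50), OsMAS, of the synthesis of the diterpene momilactone (-0.49), the cytokinin response regulator OsRRA19 (-0.44), the photosystem II gene PSB28 (-0.43) and MADS (OsMADS2, a floral homeotic factor, -0.38).

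The desiccated arrays had no part in the choice of the 20 genes. Of the 10 higher genes 8 and of the 10 lower genes 5 kept their sign in H49_DS against WT_DS, and 0 of the 20 were without overlap in the same direction there. An unadjusted p under 0.05 with the same sign was found for 3 of the 20, where 733 of all genes (4.84%) had such a p after desiccation in either direction. The median size was 0.55 in water, and 0.21 along the same direction after desiccation, with a lowest adjusted p of 0.970 in limma. Since the largest differences in water were picked, smaller ones on other arrays say nothing about the treatment. Across all genes 56.6% had the same sign in both treatments, and 0 genes passed the test of a genotype difference that depends on treatment, whose lowest adjusted p in limma was 1.00.

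**Figure D3:**
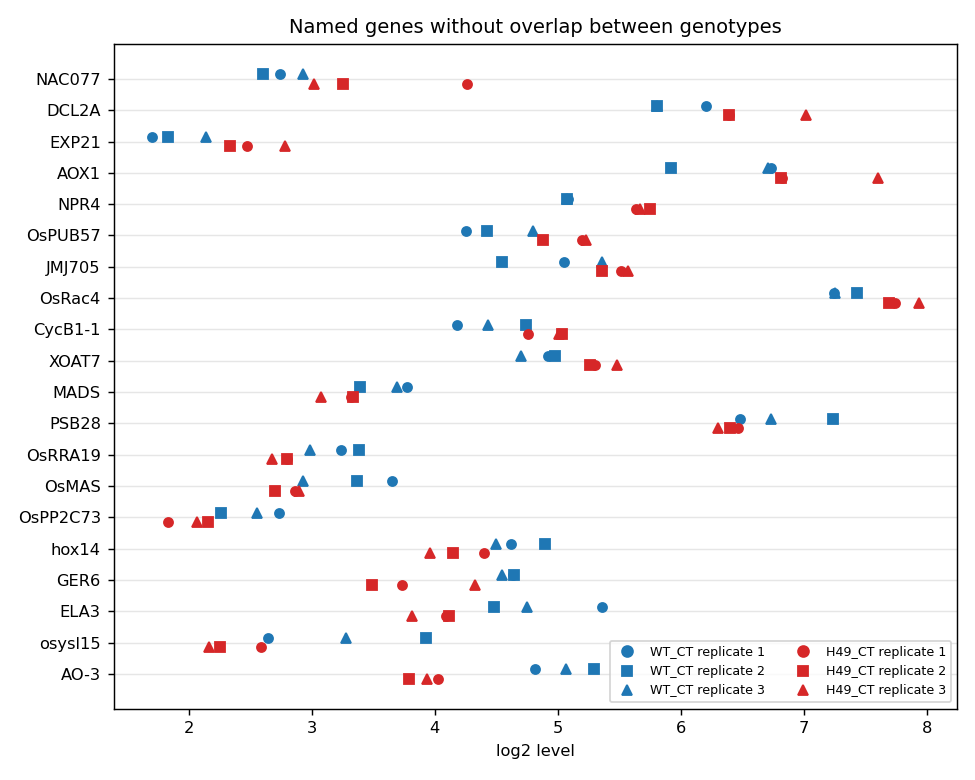
Log2 level (horizontal axis) of the 20 named genes on each control array, with WT_CT in blue and H49_CT in red and circles, squares and triangles for replicates 1, 2 and 3. In AO-3 every red symbol lies between 3.79 and 4.02 and every blue symbol between 4.81 and 5.30, while in NAC077 and AOX1 the groups nearly touch.

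Basal levels of stress genes were compared next. Over both genotypes, limma called 772 genes (5.10%) as raised and 1341 genes (8.86%) as lowered by desiccation. These lists were made from the same arrays, with both genotypes entering equally. The 772 raised genes had medians of 5.77, 5.69 and 5.49 on the WT_CT arrays and 5.64, 5.71 and 5.73 on the H49_CT arrays, against 7.09 to 7.53 after desiccation. WT_CT replicate 3 was the lowest and WT_CT replicate 1 the highest control array, with the H49_CT arrays between them. The median difference of the 772 genes was 0.04, beside 0.03 over all genes tested. At an unadjusted p under 0.05 there were 10 higher and 12 lower (2.85%, against 1.92% of all genes), and 0 were called. The 187 genes raised at least 4-fold by desiccation had a median difference of -0.01, with 1 higher and 8 lower at that p (4.81%). Their medians were 5.62, 5.13 and 5.13 on the WT_CT arrays and 5.24, 5.34 and 5.37 on the H49_CT arrays. WT_CT replicate 1 was the highest of these. A count for the 187 genes without the arrays numbered 1 is not given here. The 1341 lowered genes had a median difference of 0.06, with 15 higher and 2 lower (1.27%).

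Without the arrays numbered 1 the median difference of the same 772 genes was 0.12, beside 0.03 over all genes. There were then 52 higher and 12 lower at an unadjusted p under 0.05 (8.29%, against 4.65% of all genes), and 1 was called. The 1341 lowered genes then had a median difference of -0.01, with 24 higher and 28 lower (3.88%), so that the lean towards higher values in H49_CT was not seen without these arrays.

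The LEA and dehydrin genes, classical targets of ABA signalling, were near the bottom of the scale in water in both genotypes. LEA19 (OsLEA3-1) had 3.63, 2.57 and 2.84 in WT_CT and 2.34, 2.73 and 2.03 in H49_CT. WT_CT replicate 1 was the highest, and the other arrays of the genotypes overlapped. The difference was -0.64 (SE 0.29, 95% interval -1.26 to -0.03, adjusted p 1.00 in limma), and -0.32 without the arrays numbered 1. RAB16C, a dehydrin gene, had 3.43, 3.18 and 3.53 in WT_CT and 2.87, 3.21 and 3.13 in H49_CT, and the groups overlapped at a difference of -0.31 (SE 0.30). After desiccation LEA19 was 5.20 and RAB16C 4.36 higher over both genotypes.

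The other genes of this list, which also takes in a salt-induced lectin, went either way. LEA1 (OsLEA3-2) had 3.56, 2.90 and 2.77 in WT_CT and 3.40, 4.30 and 3.36 in H49_CT, with H49_CT replicate 2 above the rest and a difference of 0.60 (SE 0.31). EM, a LEA gene of the embryo, had a difference of -0.29 (SE 0.58), and ML (salT), the mannose-binding lectin, which is not a LEA gene, 0.03 (SE 0.36). All 5 genes of this list were raised by desiccation, and in water 0 were called. LEA19 alone had an unadjusted p under 0.05 (20%, against 1.92% of all genes). Without the arrays numbered 1 the median difference went from -0.29 to -0.19, with 1 higher at that p (20%, against 4.65% of all genes).

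Of the signalling genes, the 32 protein phosphatases 2C, whose clade A members hold back ABA signalling, had a median difference of 0.07. There were 17 higher and 15 lower, and 1 (3.12%, against 1.92% of all genes) had an unadjusted p under 0.05. The median was 0.13 without the arrays numbered 1, with 2 higher and 1 lower at that p (9.38%, against 4.65% of all genes). OsPP2C59, raised by 5.37 after desiccation, had 5.71, 4.42 and 5.0 in WT_CT and 5.20, 5.09 and 4.70 in H49_CT, a difference of -0.05 (SE 0.27). PP2C68 and OsPP2C30, also strongly raised by desiccation, differed by -0.53 (SE 0.30) and -0.46 (SE 0.26). The gene under that p was BIPP2C2, with 5.0, 5.59 and 5.30 in WT_CT and 5.58, 6.19 and 6.13 in H49_CT, a difference of 0.67 (SE 0.21, 95% interval 0.22 to 1.13). The H49_CT arrays were high, but replicate 1 of H49_CT lay just below replicate 2 of WT_CT. Among the 8 genes of ABA synthesis, breakdown and signalling 0 had an unadjusted p under 0.05. They included ABF2 (OsbZIP23), a bZIP factor of ABA-dependent genes, with 5.68, 6.14 and 5.71 in WT_CT and 6.05, 5.80 and 6.21 in H49_CT, and the kinase gene OsSAPK1 with a difference of -0.41 (SE 0.29).

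The 8 DREB and other AP2/ERF factors had a median difference of -0.03, with 3 higher and 5 lower. At an unadjusted p under 0.05 in limma, 1 was higher (12.5%, against 1.92% of all genes). Without the arrays numbered 1 the median was -0.08, with 2 higher at that p (25%, against 4.65% of all genes). The list held the largest difference among the stress lists, that of DREB1G, one of the factors that bind the dehydration-responsive element. DREB1G had 4.08, 5.27 and 5.66 in WT_CT and 4.88, 6.75 and 6.49 in H49_CT, a difference of 1.04 (SE 0.47, 95% interval 0.04 to 2.05, adjusted p 1.00 in limma). CBF3 (OsDREB1A) had 6.37, 7.89 and 8.21 in WT_CT and 6.97, 8.68 and 8.85 in H49_CT, a difference of 0.68 (SE 0.51). In both genes replicate 1 was the lowest array of its genotype, and the groups overlapped. Without the arrays numbered 1 the differences were 1.16 (SE 0.25) for DREB1G and 0.72 (SE 0.23) for CBF3. Desiccation lowered both, with changes of -2.26 for DREB1G and -2.99 for CBF3. The other 6 members differed by -0.20 (AP2-4) to 0.04 (EREBP-1). The 28 heat stress factors and heat shock proteins had a median difference of 0.14. At an unadjusted p under 0.05, 1 was higher (3.57%, against 1.92% of all genes). Without the arrays numbered 1 the median was 0.21, with 5 higher at that p (17.9%, against 4.65% of all genes). HSF10, a heat stress transcription factor, had 5.31, 5.69 and 5.65 in WT_CT and 5.57, 6.65 and 6.56 in H49_CT, a difference of 0.71 (SE 0.25), and again replicates 1 were low.

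Over the 8 stress lists, which hold 192 genes in all, the median difference was 0.04 with 109 higher and 83 lower. At an unadjusted p under 0.05 there were 3 higher and 1 lower (2.08%, against 1.92% of all genes), namely DREB1G, HSF10, BIPP2C2 and LEA19. Of the 192 genes, 11 (5.73%, against 7.46% of all genes) were without overlap. Without the arrays numbered 1 there were 16 higher and 4 lower at that p (10.4%, against 4.65% of all genes) and 0 called. NAC067 was among the 16, with 5.04, 4.19 and 4.05 in WT_CT and 4.56, 5.73 and 5.04 in H49_CT, and HXK1, a hexokinase, with 4.07, 3.36 and 2.74 in WT_CT and 3.19, 5.11 and 4.09 in H49_CT. In NAC067 and HXK1 the arrays numbered 1 ran against the other pairs. DREB1G, CBF3, HSF10 and BIPP2C2, also among the 16, were higher in H49_CT replicate 1 than in WT_CT replicate 1 too.

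**Figure D4:**
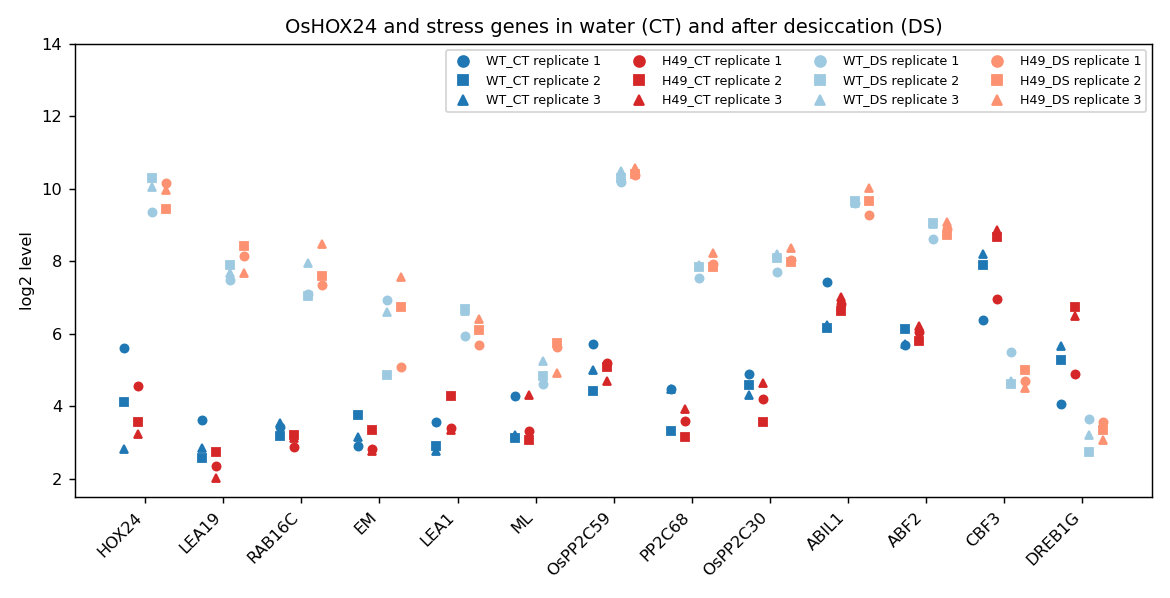
Log2 level (vertical axis) of OsHOX24, written HOX24, and 12 stress genes on the 12 arrays, with WT in blue and H49 in red, dark in water and pale after desiccation, and circles, squares and triangles for replicates 1, 2 and 3. In water the dark symbols of LEA19 lie between 2.03 and 3.63, with a difference in means of -0.64. Those of DREB1G overlap between the genotypes, with a difference in means of 1.04. Desiccation moves most genes far above and CBF3 and DREB1G below their control values.

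Most of the stress genes with the highest levels, picked by level and not by their difference, lay close in the genotypes. Among those so picked, DREB1G (1.04), CBF3 (0.68) and LEA1 (0.60), described above, differed more. Of the SnRK2 kinase genes, OsSAPK4 had 8.18, 8.36 and 8.32 in WT_CT and 8.50, 8.30 and 8.06 in H49_CT, a difference of 0.01 (SE 0.24). NAC048, a NAC factor that desiccation raised by 1.29, had 9.06, 9.67 and 9.06 in WT_CT and 8.78, 9.59 and 9.45 in H49_CT. CAT-B, a catalase that breaks down hydrogen peroxide, had 9.75, 8.77 and 9.31 in WT_CT and 9.38, 8.94 and 9.40 in H49_CT. In these 3 genes the arrays of the genotypes were interleaved. OsSUS4, a sucrose synthase that desiccation raised by 1.10, had 8.54, 8.04 and 8.50 in WT_CT and 8.43, 8.40 and 8.88 in H49_CT, a difference of 0.21 (SE 0.25). BIP1, a chaperone of the endoplasmic reticulum, differed by 0.15 (SE 0.32) and the chaperone CLPB-C by 0.21 (SE 0.22). CLPB-C was among the few without overlap, with 7.58, 7.73 and 7.61 in WT_CT and 7.74, 7.96 and 7.84 in H49_CT.

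Over all 16 lists, the brightest members numbered 64, of which 61 overlapped between the genotypes and 61 differed by less than 0.5. The 3 without overlap stand beside 1130 of all 15140 genes (7.46%). Over all genes the 1st and 99th percentiles of the difference were -0.54 and 0.61, so that small differences were not particular to these members. The differences of the 64 ran from -0.44 for Lsi2, a silicon transporter, to 1.04 for DREB1G, with a median of 0.06.

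Of the other gene groups, the 27 homeobox genes had a median difference of 0.03 (0.04 without the arrays numbered 1) with 1 lower at an unadjusted p under 0.05 (3.7%) in either case, and HOX6, another HD-Zip I gene, had 7.51, 7.66 and 6.92 in WT_CT and 7.45, 7.62 and 7.12 in H49_CT. The 69 genes of DNA replication and the cell cycle had a median difference of 0.06 (0.05 without those arrays) with 1 higher (1.45%) in either case, and the 14 genes of photosynthesis and chlorophyll -0.09. The 17 pathogenesis-related and WRKY genes had a median of 0.13, with 2 higher at an unadjusted p under 0.05 (11.8%, against 1.92% of all genes), NPR4 and the chitinase gene Cht11 (4.99, 4.58 and 4.05 in WT_CT, 4.76, 5.26 and 5.24 in H49_CT). Without the arrays numbered 1 this group had a median of 0.27 with 4 higher (23.5%, against 4.65% of all genes). The 21 jasmonate genes had a median of 0.11 and 0 at that p, and 0.19 with 2 higher (9.52%) without those arrays. The 44 root genes had a median of -0.02, with 2 lower at that p (4.55%), osysl15 and the ammonium transporter gene AMT3-3, whose values were 4.61, 3.99 and 3.98 in WT_CT and 4.01, 2.92 and 3.37 in H49_CT. The root genes had a median of -0.07 without the arrays numbered 1, with 0 higher and 5 lower (11.4%, against 4.65% of all genes). The 5 were osysl15, AMT3-3, NAS1, NAS2 and Nramp1. For NAS1, NAS2 and Nramp1 the lower value rested on a single high array, WT_CT replicate 2, as described below. None of these groups held a called gene, with or without those arrays.

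Arrays of the same genotype were farther from each other than arrays of different genotype with the same number. Pairs of WT_CT arrays were 2-fold apart at 598 to 1002 genes and pairs of H49_CT arrays at 546 to 700 genes. Arrays of different genotype with the same number were 2-fold apart at 361 to 440 genes. The closest of all pairs was WT_CT replicate 3 with H49_CT replicate 1, at 318 genes. The median SD over the 3 replicates was 0.24 in WT_CT and 0.22 in H49_CT, and 221 and 186 genes had an SD of at least 1, with 109 of them shared. The array farthest from its group was WT_CT replicate 2, at least 1 log2 unit away from both other arrays at 329 genes, and the array nearest was WT_CT replicate 3, at 129 genes. In H49_CT the counts were 194, 144 and 263 for replicates 1, 2 and 3.

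Among genes with a recognised name, the 3 largest SDs in each group belonged to CCA1 and OsPCL1 of the circadian clock and to BBD1, and their levels went with the replicate number in both genotypes. CCA1 (also called LHY), a clock factor that peaks in the morning, had 7.33, 10.05 and 5.40 in WT_CT and 7.82, 9.96 and 5.53 in H49_CT. OsPCL1, an evening gene of the clock, had 4.59, 2.85 and 7.95 in WT_CT and 4.04, 2.94 and 7.60 in H49_CT. Replicate 2 was highest for CCA1 and lowest for OsPCL1 in both genotypes, and replicate 3 was the reverse. The desiccated arrays had the same order, with 8.40, 10.62 and 6.20 for CCA1 in WT_DS and 8.17, 10.13 and 6.48 in H49_DS. BBD1, a nuclease with the largest of these SDs (2.60 in WT_CT and 2.61 in H49_CT), followed OsPCL1, with 7.86, 4.80 and 9.98 in WT_CT and 7.56, 4.55 and 9.75 in H49_CT. The hours of harvest are not given in the sources used here.

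**Figure D5:**
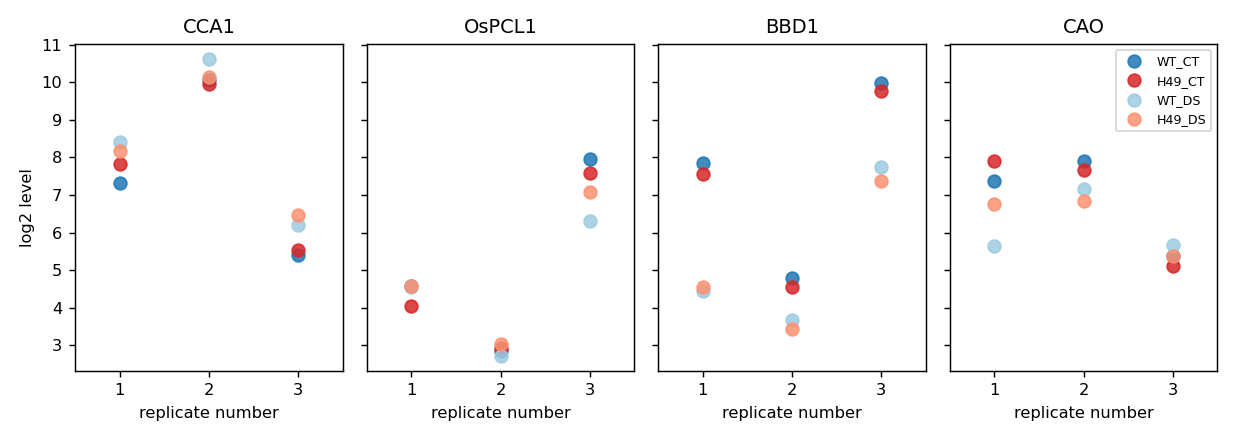
Log2 level (vertical axis) of CCA1, OsPCL1, BBD1 and CAO against the replicate number (horizontal axis), which has no order of its own, for WT (blue) and H49 (red) in water (dark) and after desiccation (pale), 1 point per array. For CCA1 the points of replicate 2 lie between 9.96 and 10.62 in all 4 groups and those of replicate 3 between 5.40 and 6.48.

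Chlorophyll genes went with the number too. CAO, which makes chlorophyll b, had 7.39, 7.91 and 5.39 in WT_CT and 7.90, 7.67 and 5.12 in H49_CT, and CHLH, a subunit of magnesium chelatase, had 8.23, 8.93 and 7.72 in WT_CT and 8.61, 8.94 and 7.53 in H49_CT. Replicate 3 was lowest in each case, and the differences between the genotypes were 0.00 and 0.07. OsPIP2;7, an aquaporin, had 9.22, 8.09 and 10.49 in WT_CT and 9.41, 8.11 and 10.47 in H49_CT, close in the genotypes and low in replicate 2. Replicates 1 were low in both genotypes for MYB2, with 6.11, 7.62 and 7.87 in WT_CT and 6.28, 7.42 and 8.47 in H49_CT, and for OsWRKY71, with 7.61, 9.31 and 8.89 in WT_CT and 7.77, 9.56 and 9.54 in H49_CT. Thus replicates 1 shared a number-wise pattern at these genes, while they stood on opposite sides at the 59 genes described above.

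Some genes of iron uptake stood apart on 1 array. The root list held 26 genes of the NAS, YSL, NRAMP and NAAT families, and WT_CT replicate 2 was at least 1 log2 unit above the other 5 control arrays at 4 of them, while each of the other control arrays was so at 0. NAS1, a nicotianamine synthase of iron chelation, had 3.63, 6.63 and 3.99 in WT_CT and 3.97, 3.08 and 3.07 in H49_CT, and NAS2 had 3.24, 6.58 and 3.95 in WT_CT and 4.24, 3.84 and 3.36 in H49_CT. OsYSL2, a transporter of iron and nicotianamine, had 4.87, 6.94 and 5.50 in WT_CT and 5.02, 4.94 and 5.39 in H49_CT. The high value was that of WT_CT replicate 2 each time, and Nramp1, a metal transporter, was high there too, with 5.40 against 3.18 to 3.91 on the other control arrays. NAS1 had the largest negative difference of all genes, -1.38 (SE 0.67), with the WT_CT and H49_CT arrays overlapping, and NAS2 had -0.78 (SE 0.61). The other 22 did not stand apart in this way, among them NAS3, with 3.29, 3.69 and 3.27 in WT_CT and 3.53, 2.80 and 3.68 in H49_CT. This family count, OsYSL2, Nramp1, NAS3 and the genes of the 2 preceding paragraphs outside the rule for named genes were chosen after their values had been seen.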

How the data were processed

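RNA of 12 seedling samples was hybridised to Affymetrix rice arrays, and the authors made the deposited log2 values with RMA, which corrects background, quantile-normalises the arrays and summarises probes. RMA makes arrays alike in overall distribution, so that a change common to most genes cannot be seen. The labels name a 3' IVT kit and 500 ng of RNA, while the study's methods name a whole-transcript (WT) kit, and which was used is not settled here. Of 54922 probe sets, 15829 were paired with 1 gene by the platform table, 440 with several and 38653 were unnamed here. A gene with more than 1 probe set (627 of 15140) was represented by that with the highest mean. Names came from the RefSeq gene table, and 1734 genes had a recognised name.

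Values were fitted with limma 3.58.1 (R 4.3.3), with 1 mean per group over 12 arrays and Benjamini-Hochberg adjustment over all genes. The fit was tested on simulated data with independent noise on each array. These did not hold the patterns by replicate number or the displaced replicates 1 described above. Precision is limited by the 3 arrays per group. The methods call the replicates independent biological replicates. Named genes were drawn from OsHOX24, the 10 largest differences in each direction among named genes without overlap, up to 4 members of each of 16 lists by level, and the 5 largest SDs per group. Other genes were named after their values were seen. The lists were patterns of gene names, from which 47 genes of another kind were removed. The genes, lists and tests were chosen with earlier results of these data known. A search of promoters for the HD-Zip site was not made, as no promoter sequence was used here.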

Additional observations from a re-analysis of the deposited data

How the results depend on the processing

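With all arrays, limma called 0 genes under each other scaling, filter, probe summary, variance model, fold minimum (none or 1.5), block and single array left out. The methods' t-test, unadjusted, gave 6 genes, and 0 with Benjamini-Hochberg adjustment. Alternatives chosen after seeing the data called 2 genes without both control arrays numbered 1, 20 without all 4 arrays numbered 1, and 12 of 54922 probe sets without those 4. At an unadjusted p under 0.05, in place of 290 genes, there were 486 with array weights, 544 by the methods' t-test, 94 of 7570 brighter genes, 541 without both control arrays numbered 1, 704 without all 4, 1541 of 54922 probe sets and 2649 of these probe sets without the 4 arrays. Leaving out single control arrays gave 250 to 453, the highest without H49_CT replicate 1. Genes without overlap numbered 482 of the brighter genes and 4678 of the probe sets, in place of 1130.

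OsHOX24 changed sign without WT_CT replicate 1, from -0.39 to 0.32, and ranged from -1.07 to 0.32 with single arrays left out. Of 387 alternative values for the 20 named genes, 0 were called.

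Deviations of same-numbered control arrays correlated at -0.07, 0.39 and 0.31 for replicates 1, 2 and 3, and 4 of 6 arrays correlated best with their own number, a hint from the data only. With the replicate block 0 genes were called, and 378 genes over 12 arrays or 602 over the 6 control arrays had an unadjusted p under 0.05.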
